A study of Homo sapiens with 12 samples.

Results

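The 8 epithelial junction and surface genes described here in the human prostate cancer line DU145 are CDH1, EPCAM, CLDN7, CBLC, TNS4, MUC16, EPHA1 and FAM83F, picked by symbol because earlier results of these data showed them lower, so their own values are given as a description with no test. All 8 were among the 1810 genes of the RSL3 table, and 5 of the 8 (CDH1, TNS4, MUC16, EPHA1 and FAM83F) were among the 1424 rows of the ATOH8 table. RNA was sequenced in 12 libraries, in 4 groups of 3. Wild-type DU145 treated for 24 h with RSL3, which blocks GPX4, an enzyme that clears lipid peroxides, was compared with wild-type DU145 given DMSO. DU145 overexpressing ATOH8 (oeATOH8), a transcription factor of the basic helix-loop-helix class, was compared with DU145 carrying the overexpression control (oeCTRL). The sources used here give no RSL3 dose, no construct or promoter and no clone, and do not say whether replicates were separate cultures, so p-values measure only the spread between libraries. Both tables hold only genes that the authors called changed, so a gene outside a table has no value here.

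Epithelial cells are held side by side by adherens junctions, in which E-cadherin, the product of CDH1, binds its like on the neighbouring cell and is tied to actin through catenins. Tight junctions, built from claudins such as CLDN7, seal the space between cells, and EPCAM is an adhesion molecule of epithelial membranes that can bind CLDN7. Loss of E-cadherin is a hallmark of the shift from an epithelial to a mesenchymal state, in which repressors of the SNAI and ZEB families bind E-box letters in its promoter. MUC16 is a large transmembrane mucin that carries the CA125 antigen, and EPHA1 is a receptor tyrosine kinase of the Eph family. The other members lie inside the cell. CBLC is an epithelial ubiquitin ligase that acts on activated receptor tyrosine kinases, TNS4 is a short tensin of focal adhesions, and FAM83F belongs to a family whose members anchor casein kinase 1.

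In the ATOH8 table, ATOH8 itself had 76508, 72569 and 76043 reads in the oeATOH8 libraries, against 13, 10 and 4 in the oeCTRL libraries, so the libraries fitted those labels. ATOH8 was also in the RSL3 table, at 418.8 ± 56.9 normalised read counts with RSL3 and 33.9 ± 6.97 with DMSO (SD, n = 3 each). A normalised read count is a read count divided by the size factor of its library. Reads summed over listed genes ranged from 2523743 to 3096832 per library in the RSL3 table and from 1508188 to 2226518 in the ATOH8 table. These sums are not library depths, which the sources used here do not give. Replicates 2 and 3 of the RSL3 experiment were nearly as alike as repeats of 1 sample. Between them, the chi-square of the reads divided by its degrees of freedom was 1.81 in RSL3 and 1.65 in DMSO, where counting error alone gives about 1, and for pairs with replicate 1 it was 60.7 to 106. The same measure lay between 13.0 and 39.8 in oeATOH8 and between 6.34 and 9.24 in oeCTRL. Values from the RSL3 table are therefore also given for replicate 1 and for replicates 2 and 3 apart.

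The members lie on 6 chromosomes, and each row of the tables stands for a whole gene. By the spans of the RSL3 table (GRCh38), CDH1 is on chromosome 16 (68737292 to 68835537, plus strand), EPCAM on chromosome 2 (47369311 to 47387020, plus) and CLDN7 on chromosome 17 (7259903 to 7263213, minus). CBLC and MUC16 are on chromosome 19 (44777855 to 44800652, plus, and 8848840 to 9010390, minus). TNS4 is on chromosome 17 (40475828 to 40501681, minus), EPHA1 on chromosome 7 (143391129 to 143408856, minus) and FAM83F on chromosome 22 (39994954 to 40043534, plus). Rows of the ATOH8 table carry an Ensembl identifier and no span. The GENCODE gene with the identifier of MUC16 ends at 8981342. Whether counting used strand is not given in the sources used here. By GENCODE spans, EPHA1 overlaps ZYX by 823 bases and EPHA1-AS1 by 1080 bases, both on the opposite strand. That span of EPHA1 starts at 143390289, before the start in the RSL3 table. CLDN7 overlaps ELP5 by 38 bases and a gene on its own strand by 2187 bases, and an antisense gene shares 9197 bases with CDH1. Reads from such stretches, where they were counted, may not be told apart.

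Promoter windows are shown because the members were picked as lower together and because ATOH8 and the known E-cadherin repressors are factors of the kind that reads E-box letters. RefSeq (GRCh38.p14) gave windows from 250 bases before to 50 bases after a start site for 3 of the 8 members, with 5 start sites in all. Capitals mark each CANNTG, the E-box pattern, which reads the same on both strands and includes CAGGTG and CAGCTG. Each sequence is on the strand of its gene. The windows shown are EPHA1 at chr7:143408807-143409106, MUC16 at chr19:9010360-9010659, the start nearest to the span of the RSL3 table, and CLDN7 at chr17:7263164-7263463 (outer start) and chr17:7262429-7262728 (inner start), all minus strand.
EPHA1: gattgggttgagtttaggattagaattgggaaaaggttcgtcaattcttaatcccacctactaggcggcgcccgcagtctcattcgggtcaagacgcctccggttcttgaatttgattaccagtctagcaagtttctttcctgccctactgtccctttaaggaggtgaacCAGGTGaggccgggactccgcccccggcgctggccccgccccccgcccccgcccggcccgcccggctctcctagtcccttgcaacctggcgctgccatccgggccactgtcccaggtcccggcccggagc
MUC16: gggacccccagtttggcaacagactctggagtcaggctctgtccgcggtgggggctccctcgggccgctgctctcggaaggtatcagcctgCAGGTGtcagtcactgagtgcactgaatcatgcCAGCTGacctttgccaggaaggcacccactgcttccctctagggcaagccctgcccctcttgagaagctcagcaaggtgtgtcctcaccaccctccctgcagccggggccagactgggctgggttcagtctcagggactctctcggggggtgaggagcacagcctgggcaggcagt
CLDN7 outer start: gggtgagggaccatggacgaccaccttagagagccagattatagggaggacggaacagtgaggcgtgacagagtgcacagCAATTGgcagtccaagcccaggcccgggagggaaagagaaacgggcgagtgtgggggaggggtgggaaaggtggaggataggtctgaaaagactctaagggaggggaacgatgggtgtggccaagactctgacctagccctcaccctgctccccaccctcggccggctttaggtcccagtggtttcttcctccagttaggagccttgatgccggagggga
CLDN7 inner start: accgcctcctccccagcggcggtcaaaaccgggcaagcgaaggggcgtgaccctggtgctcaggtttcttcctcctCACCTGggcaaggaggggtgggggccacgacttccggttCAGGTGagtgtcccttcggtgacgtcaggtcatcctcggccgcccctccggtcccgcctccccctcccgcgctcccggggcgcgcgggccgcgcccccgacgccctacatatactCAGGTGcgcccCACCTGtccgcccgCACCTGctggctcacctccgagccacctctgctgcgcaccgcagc
The inner CLDN7 window held 5 E-box matches, and all 5 read CAGGTG or its reverse complement CACCTG, the letters that SNAI and ZEB factors bind. EPHA1 held 1 match, a CAGGTG whose first base lay 80 bases before the start site, and MUC16 held a CAGGTG and a CAGCTG. The outer CLDN7 window held a single CAATTG. The second MUC16 start, 55361 bases from the edge of the table's span and not shown, held 4 matches, of which 1 read CACCTG. Of the 35116 RefSeq windows of the same length, 68.7% held any CANNTG, 20.6% held CAGGTG on either strand, 17.9% held CAGCTG and 3.04% held CATATG, which none of the 5 windows had. The GC box GGGCGG, on either strand, was found 5 times for EPHA1, 2 times in the inner CLDN7 window and 1 time at the second MUC16 start. Of all windows, 45.0% held it. These are matches of letters, and no binding was measured in the files used here.

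RSL3-treated cells had less RNA of the junction genes CDH1, EPCAM and CLDN7 than DMSO cells, by 4.34-fold, 3.01-fold and 2.19-fold. CDH1 read 39.1, 129 and 146 normalised counts in RSL3 replicates 1, 2 and 3, against 459, 443 and 464 in DMSO. The groups were far apart, and within RSL3 replicate 1 was lowest, at 0.283 of the mean of replicates 2 and 3. The mean was 105 ± 57.7 with RSL3 and 455.5 ± 11.3 with DMSO (SD, n = 3 each). CDH1 was 11.8-fold lower in replicate 1 and 3.29-fold lower in replicates 2 and 3. EPCAM read 60.8, 150 and 161 in RSL3, against 242, 437 and 443 in DMSO, with means of 124 ± 55.1 in RSL3 and 374 ± 115 in DMSO. Replicate 1 was the lowest library within each group, and the highest RSL3 library stayed below the lowest DMSO library. The fold of EPCAM was 3.98 in replicate 1 and 2.82 in replicates 2 and 3. CLDN7 read 95.6, 89.1 and 85.4 in RSL3, against 303, 141 and 146 in DMSO. The RSL3 libraries lay close together (90.03 ± 5.14), while DMSO replicate 1 was 2.11 times the mean of the other DMSO libraries (197 ± 92.3 over all 3). CLDN7 was 3.17-fold lower in replicate 1 and 1.65-fold lower in replicates 2 and 3. Over all 3 libraries its fold was the smallest of the 8 genes, and in replicate 1 that of TNS4 was smaller.

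The surface genes EPHA1 and MUC16 were expressed at a low level and were lower still with RSL3. EPHA1 read 4.34, 10.3 and 10.3 normalised counts in RSL3 (3, 11 and 11 reads), against 35.2, 38.2 and 41.9 in DMSO (32, 50 and 48 reads). The groups did not overlap, and EPHA1 was 4.61-fold lower over all libraries, 8.10-fold in replicate 1 and 3.88-fold in replicates 2 and 3. MUC16 had 0, 2 and 0 reads in RSL3, against 10, 13 and 15 reads in DMSO. Both of its RSL3 reads were in replicate 2, and the summed reads gave a rate 15.9-fold lower. The exact 95% counting interval, 4.12-fold to 136-fold, leaves out the spread between libraries and the picking of MUC16 for being lower. It shows how few the reads are and is no test of a difference. The ratio of mean normalised counts was 18.1-fold, and 12.1-fold without RSL3 replicate 1 or replicate 3.

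The cytoplasmic members CBLC, TNS4 and FAM83F were 5.86-fold, 4.67-fold and 4.69-fold lower with RSL3. CBLC read 89.8, 112 and 92.9 in RSL3, against 595, 535 and 596 in DMSO. Its groups were the most widely separated of the members outside MUC16, with means of 98.1 ± 11.8 in RSL3 and 575 ± 34.7 in DMSO and a fold of 6.62 in replicate 1 and 5.53 in replicates 2 and 3. TNS4 read 20.3, 16.9 and 19.7 in RSL3, against 57.2, 91.6 and 117 in DMSO. The RSL3 libraries were level and the DMSO libraries were not, and the fold of TNS4 was smaller in replicate 1 (2.82) than in replicates 2 and 3 (5.70). FAM83F read 7.24, 3.75 and 9.39 in RSL3 (5, 4 and 10 reads), against 31.9, 30.5 and 33.2 in DMSO (29, 40 and 38 reads). Its DMSO libraries agreed closely, its RSL3 libraries rest on few reads, and its fold was 4.85 in replicates 2 and 3 and somewhat smaller in replicate 1.

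**Figure D1:**
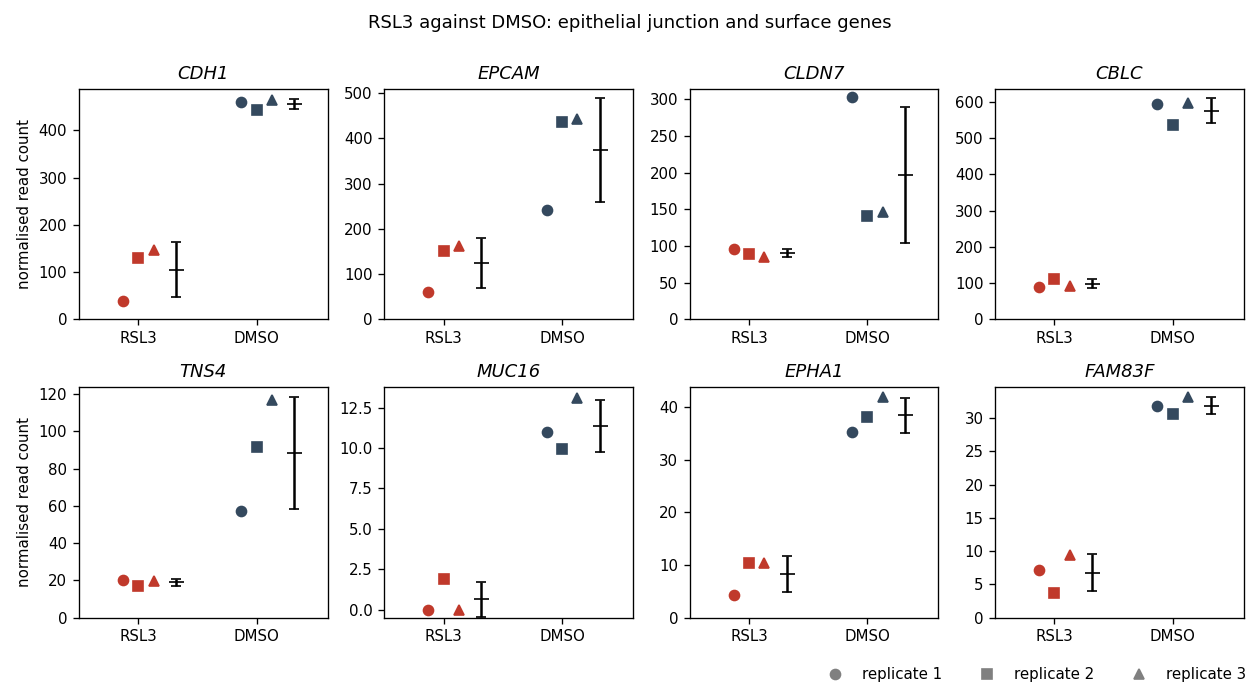
Normalised read count (y axis, own scale per gene, from 0 or just below it) of the 8 genes in RSL3 (left) and DMSO (right) libraries, with a marker shape per replicate number and the mean ± SD of 3 libraries as a bar beside them. In each panel the RSL3 points lie below the DMSO points, and CLDN7 has 1 DMSO library, replicate 1 at 303, far above the other DMSO libraries.

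Across the 8 genes, RSL3 and DMSO libraries did not overlap for 8, all lower with RSL3, where 37.8% of the 1810 listed genes were lower without overlap. The members were picked for being lower, so nothing is read from that count. Their median log2 fold change was -2.21, against 0.50 over all listed genes. By size of the fold, MUC16 ranked 6, CBLC 45, FAM83F 80, TNS4 82, EPHA1 83, CDH1 98, EPCAM 234 and CLDN7 441 among the 852 listed genes that were lower. All 8 passed the filter on low counts. Within RSL3, replicate 1 was at 0.283, 0.39 and 0.421 of replicates 2 and 3 for CDH1, EPCAM and EPHA1, and between 0.878 and 1.11 for CBLC, CLDN7, FAM83F and TNS4. Within DMSO, it was at 0.549 and 0.548 for EPCAM and TNS4, 2.11 for CLDN7 and between 0.878 and 1.05 for CBLC, CDH1, EPHA1, FAM83F and MUC16. The deviation of replicate 1 followed GC content across 1356 listed genes, with a Spearman rho of 0.59 in RSL3 and 0.52 in DMSO. These genes are not independent replicates. The longest transcripts of EPCAM and CDH1 have a GC content of 47.0% and 48.6%, against a median of 54.6% over those genes, and MUC16 and FAM83F have 50.3% and 51.9%. TNS4, EPHA1, CLDN7 and CBLC lie above that median, at 57.9%, 59.4%, 59.6% and 64.5%. Over the 1356 genes, the median ratio of replicate 1 to the mean of replicates 2 and 3 was 1.22 in RSL3 and 1.17 in DMSO. The part of GC content in the replicate 1 values was not tested.

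**Figure D2:**
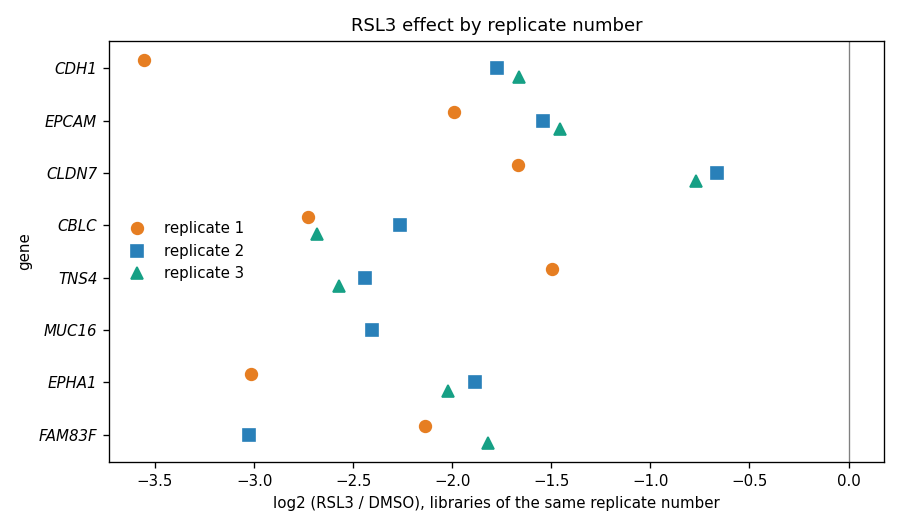
Log2 ratio of RSL3 over DMSO (x axis) for each gene (y axis), taken between libraries of the same replicate number, with 0 marked by a line and MUC16 shown for replicate 2 only because it had 0 reads in the other RSL3 libraries. All points lie below 0, and CDH1 stands out with -3.55 in replicate 1 against -1.77 and -1.67 in replicates 2 and 3.

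Set per kilobase of annotated exon, the order of the members by mean level in the RSL3 table was CBLC, EPCAM, CLDN7, CDH1, TNS4, EPHA1, FAM83F and MUC16, in RSL3 as in DMSO. Normalised counts per kilobase were 60.8 in RSL3 and 357 in DMSO for CBLC, and 49.3 in RSL3 and 148 in DMSO for EPCAM. They were 36.1 in RSL3 and 79.0 in DMSO for CLDN7, and 17.0 in RSL3 and 73.7 in DMSO for CDH1. The remaining 4 lay between 0.0143 and 3.91 in RSL3 and between 0.259 and 18.3 in DMSO. In that order the libraries of EPCAM overlapped those of CBLC and of CLDN7 in RSL3, and the libraries of CLDN7 overlapped those of EPCAM and of CDH1 in DMSO.

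Cells overexpressing ATOH8 had 7.55-fold less CDH1 RNA than control cells, and TNS4, MUC16, EPHA1 and FAM83F were lower as well. CDH1 had 276, 227 and 225 reads in oeATOH8, against 1870, 1864 and 1647 in oeCTRL. The libraries of each group lay close together, with 239.9 ± 25.8 scaled counts in oeATOH8 and 1812 ± 118 in oeCTRL (SD, n = 3 each), where a scaled count is a read count after the libraries were brought to a common scale. TNS4 had 22, 13 and 29 reads in oeATOH8, against 110, 97 and 87 in oeCTRL, a 4.72-fold difference. MUC16 had 5, 0 and 13 reads in oeATOH8, against 197, 224 and 174 in oeCTRL. The oeCTRL libraries agreed within 27.8 scaled counts (SD) of a mean of 200.6, and the fold was 34.4, or 82.5 without oeATOH8 replicate 3, the library that held most of the remaining reads. EPHA1 had 7, 14 and 13 reads in oeATOH8, against 42, 42 and 59 in oeCTRL, and was 4.29-fold lower. FAM83F had 31, 36 and 10 reads in oeATOH8, against 166, 115 and 96 in oeCTRL, and was 4.93-fold lower, with replicate 3 the lowest library within each group. EPCAM, CLDN7 and CBLC were not in this table.

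**Figure D3:**
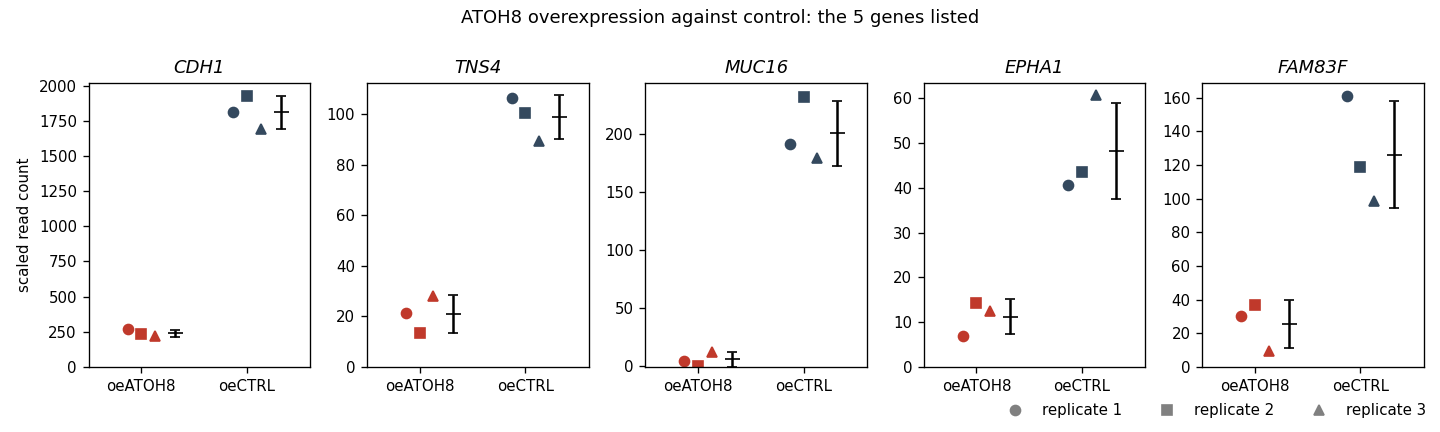
Scaled read count (y axis, own scale per gene) of the 5 listed genes in oeATOH8 (left) and oeCTRL (right) libraries, with a marker shape per replicate number and the mean ± SD of 3 libraries as a bar. The oeATOH8 points lie below the oeCTRL points in every panel, and for CDH1 both groups form tight clusters, around 239.9 and 1812.

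For these 5 genes the groups did not overlap, all 5 being lower in oeATOH8, where 58.3% of the 1424 listed rows were lower without overlap. Because the choice of members used these values, the count supports nothing. Their median log2 fold change was -2.30, against -1.10 over all listed rows, and MUC16 ranked 1, CDH1 29, FAM83F 86, TNS4 101 and EPHA1 130 of 835 lower rows by fold. The values depend on the common scale of the table. With libraries scaled by totals, by TMM or by relative log expression over listed genes, the log2 fold change of CDH1 ran from -3.37 to -2.01, that of EPHA1 from -2.55 to -1.18 and that of TNS4 from -2.69 to -1.33, and none changed sign. EPHA1 and ZYX overlap on opposite strands, and ZYX, a focal adhesion protein, was 2.23-fold higher in oeATOH8 (9984 ± 275 in oeATOH8 and 4468 ± 291 in oeCTRL scaled counts). The part of ZYX reads in the EPHA1 values was not tested. At the scaling used for each experiment, TNS4 and EPHA1 had like folds in RSL3 and in oeATOH8. These were 4.67 and 4.72 for TNS4 and 4.61 and 4.29 for EPHA1, and FAM83F had 4.69 and 4.93. CDH1 had 4.34 and 7.55. With the other scalings, log2 fold changes with RSL3 were -2.74 to -2.53 for TNS4 and -2.59 to -2.44 for EPHA1. They were -2.70 to -2.52 for FAM83F, which had -2.76 to -1.39 in oeATOH8, and -2.46 to -2.34 for CDH1. How alike the folds are thus depends on the scaling. The 2 tables were normalised apart, so these differences between experiments were not tested.

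Other genes of junctions, the cell surface and the pathways around the members were taken from 11 fixed lists of 194 genes in all, none of them a member. The lists include CBL and ERBB signalling, focal adhesion, and E-cadherin repressors and mesenchymal genes, so their totals are not counts of epithelial genes. Like the members, the lists were chosen with earlier results of these data known, so their shares are given as a description. Of the 194, 40 were listed in the RSL3 table. Of these, 27 were lower and passed limma at an adjusted p of 0.05, 5 were higher and passed, and 8 did not pass. Over all 1732 genes tested, 38.9% passed as lower and 43.1% as higher. The median log2 fold change of the 40 was -1.16, against 0.50 over all listed genes. Other scalings of the libraries moved the share of lower genes among those passing, which was 84.4% for the lists and 47.4% for all listed genes. That share became 96.4% and 70.0% with TMM, 96.3% and 71.2% with relative log expression, and 95.2% and 75.7% with totals. The number of calls, 32, changed with the libraries used. Without DMSO replicate 1, 2 or 3 limma passed 38, 0 or 1 list genes (38, 19 or 21 at an unadjusted p under 0.05). Without RSL3 replicate 1, 2 or 3 it passed 24, 12 or 11 (27, 30 or 33 at an unadjusted p under 0.05). With replicates 2 and 3 averaged as 1 library it passed 0 (18 at an unadjusted p under 0.05). Had all 58735 annotated genes been tested, with those not listed failing, 0 list genes and 0.115% of the genes tested passed (34 list genes at an unadjusted p under 0.05). On the recovered reads DESeq2 passed 39 of the list genes and 99.7% of all genes tested, and edgeR passed 36 of the list genes and 90.1% of all, so these counts are near the background.

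In RSL3 cells most listed junction genes that passed were lower, and of those that passed as higher only PKP1 did so with every scaling tried. With TMM, relative log expression or totals, 1 of the 5 higher calls over all lists was left, PKP1. The lower calls over all lists, 27 before, were 27, 26 and 20 with these scalings. All 3 listed adherens junction genes of 15 passed as lower, namely CDH3, the P-cadherin gene (1.52-fold, limma adjusted p = 0.0461), JUP, the gene of plakoglobin (1.55-fold), and AJUBA, a LIM protein of junctions (1.39-fold). Of the tight junction and polarity list, 8 of 30 were listed, with 4 lower, 3 higher and 1 that did not pass. JAM3, a junctional adhesion molecule, was 3.80-fold lower (37.1 ± 17.1 in RSL3 and 141 ± 6.34 in DMSO) and MARVELD3 2.69-fold lower. The polarity gene LLGL2 was 1.51-fold higher and the scaffold gene TJP3 1.46-fold higher, and with the other scalings their log2 fold changes were 0.14 to 0.31 and 0.09 to 0.27, which did not pass limma. Of the desmosome and hemidesmosome list, 4 of 19 were listed. PKP2, a plakophilin, was 5.61-fold lower (11.7 ± 11.1 in RSL3 and 65.9 ± 28.0 in DMSO), the integrin gene ITGB4 was 1.43-fold lower and PKP1, another plakophilin, was 2.47-fold higher. The desmocollin gene DSC2 had 53.0 ± 33.4 in RSL3 and 155 ± 87.1 in DMSO and did not pass (limma adjusted p = 0.0647), or passed with the replicate number as a block (limma adjusted p = 0.00274), a fit that passed 99.3% of all genes tested.

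Surface, mucin and transcription genes of the epithelial lists were lower with RSL3 wherever they were listed. All 9 listed of 26 other epithelial surface and membrane genes passed as lower. Among them were the sodium channel subunit SCNN1A (5.94-fold, 76.5 ± 11.7 in RSL3 and 455 ± 231 in DMSO, limma adjusted p = 0.0122), the protease gene ST14 (2.59-fold), its inhibitor SPINT1 (2.16-fold) and LAD1, which encodes ladinin (3.12-fold). The transmembrane mucin genes MUC1 (3.68-fold, 805 ± 176 in RSL3 and 2963 ± 1240 in DMSO) and MUC3A (1.89-fold) passed as lower, the 2 listed of 9. All 3 listed of 14 epithelial transcription and splicing genes passed as lower, among them the transcription factor genes ELF3 (2.17-fold) and FOXA1 (1.66-fold). In the Eph list 3 of 18 were listed, with the receptor EPHB6 2.29-fold lower, the ligand EFNA2 2.57-fold higher and the ligand EFNB2 left out by the filter on low counts. Of the CBL and ERBB list, which surrounds the pathway CBLC acts on, 6 of 19 were listed and AREG, an EGFR ligand, passed as lower (2.53-fold, limma adjusted p = 0.0145). The other 5, TGFA, EREG, MET, CBL and EGFR, missed the limma threshold with adjusted p between 0.0514 and 0.0761. With the replicate number as a block these 5, OCLN and DSC2 passed limma, with adjusted p between 0.00269 and 0.00416, as 1720 of the 1732 genes tested did. That fit takes the nearly identical replicates 2 and 3 as separate pairs. CBL, EGFR and OCLN are named after their values were seen. EGFR, for example, read 681 ± 223 in RSL3 and 1335 ± 611 in DMSO. FAM83A, a paralog of FAM83F, passed as lower (1.78-fold), the only one listed of 10 in its list. No tensin or focal adhesion gene of 15 was listed. Of 19 genes in the list of E-cadherin repressors and mesenchymal genes, only FN1, which encodes fibronectin, was listed, at 2.89-fold lower (limma adjusted p = 0.0363).

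Of the 194, 26 were listed in the ATOH8 table, 18 lower and 8 higher in oeATOH8. All 26 passed edgeR at an adjusted p of 0.05, as did every listed row, of which 58.6% were lower and 41.4% higher, so passing within this table says nothing more than the authors' own call. Had all 71239 annotated genes and assembled loci been tested, 23 of the 26 passed, 16 of them lower, where 46.6% of all rows passed as lower. The median log2 fold change of the 26 was -1.09, close to the -1.10 over all rows. With relative log expression over listed genes, 57.9% of the list genes that passed were lower in place of 69.2%, and 41.5% of all rows in place of 58.6%.

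Within the junction lists, CDH3 fell 4.84-fold (513 ± 58.4 in oeATOH8 and 2482 ± 149 in oeCTRL, edgeR adjusted p = 1.13e-07 with all annotated genes counted), MARVELD3 3.94-fold, TJP3 3.93-fold and PKP1 2.49-fold. CLDN1, the claudin-1 gene, rose 2.43-fold (15657 ± 393 in oeATOH8 and 6433 ± 211 in oeCTRL). The transcription factor gene ELF3 fell 3.09-fold. All 6 listed surface and membrane genes of 26 were lower, with CEACAM6 (6.94-fold), SPINT1 (2.88-fold) and CD24 (2.53-fold) as the named examples. MUC1 fell 3.33-fold (194 ± 39.3 in oeATOH8 and 644 ± 53.8 in oeCTRL). MUC3A and MUC20 had folds of 2.67 and 2.13 and did not pass with all annotated genes counted (edgeR adjusted p = 0.0733 and 0.0636). Of the Eph family, EPHB3 fell 5.01-fold, whereas EPHA2, the receptor of the same class as EPHA1, rose 3.91-fold (30938 ± 726 in oeATOH8 and 7908 ± 312 in oeCTRL). The EGFR ligand gene HBEGF rose 2.66-fold, and of the tensin and focal adhesion list DLC1 rose 2.75-fold and ZYX 2.23-fold. FAM83A fell 2.06-fold. In the list of E-cadherin repressors and mesenchymal genes 4 of 19 were listed. The receptor kinase gene AXL rose 2.77-fold (42469 ± 64.0 in oeATOH8 and 15358 ± 177 in oeCTRL), the matrix gene SPARC rose 4.04-fold and FN1 fell 2.09-fold. ZEB2, a repressor of CDH1, had 109 ± 59.0 in oeATOH8 and 44.7 ± 19.1 in oeCTRL and did not pass with all annotated genes counted (edgeR adjusted p = 0.562). SNAI1, SNAI2, ZEB1, TWIST1 and VIM were in neither table.

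**Figure D4:**
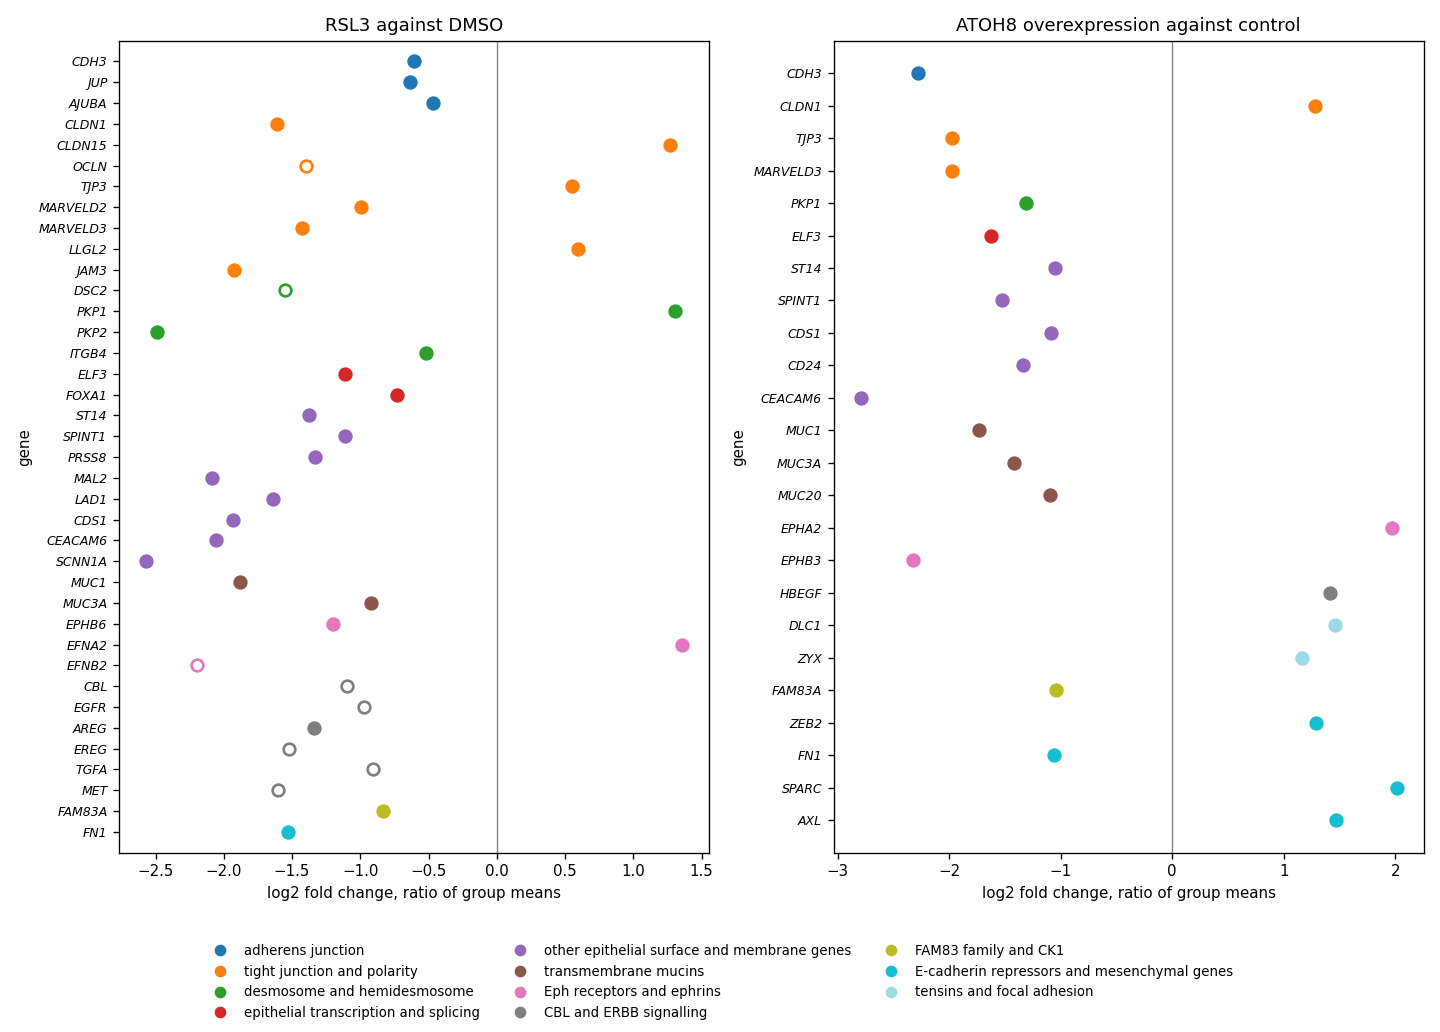
Log2 fold change of the reported genes of the 11 fixed lists (x axis, ratio of group means) in the RSL3 table (left, 38 genes) and the ATOH8 table (right, 24 genes), coloured by list, with 0 marked by a line. Filled points passed at an adjusted p of 0.05 over the listed genes and open points did not. The epithelial surface genes plotted, 8 with RSL3 and 5 with ATOH8, all lie left of 0, and the tight junction genes lie on both sides.

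Of the list genes, 16 were in both tables, and 13 were lower in both experiments, against 122 of the 251 symbols in both tables (48.6%). Among the 13, and named after their values were seen, were CDH3, CDS1, CEACAM6, ELF3, FAM83A, FN1, MARVELD3, MUC1, MUC3A, SPINT1 and ST14. The other 3 went opposite ways and are named after their values were seen. CLDN1 was 3.05-fold lower with RSL3 (142 ± 50.2 in RSL3 and 432 ± 240 in DMSO, with overlapping libraries) and higher in oeATOH8. PKP1 and TJP3 were higher with RSL3 and lower in oeATOH8. The experiments share no library.

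Among 185 genes in both tables with a mean of at least 50 in each, the 5 whose levels followed CDH1 most closely over the 12 libraries were IFIT1 (Pearson r = 0.996), MX1 (0.978), SLC2A10 (0.977), IL6 (0.972) and IFITM3 (0.971). The measure was the correlation of log2(value + 1) after each gene's own mean over the libraries of a table was taken off. All of these genes share the libraries and their scaling. The differences between groups stay in this measure, so a gene lower in both experiments tends to get a high r. Likeness within groups was not tested apart from them. IFIT1, an interferon-induced gene, had 71.7 ± 29.6 in RSL3 and 277 ± 19.1 in DMSO, and 255 ± 29.1 in oeATOH8 and 1494 ± 4.57 in oeCTRL. Like CDH1 it was lowest in RSL3 replicate 1. SLC2A10, a glucose transporter gene, had the smallest folds of the 5, at 1.80 with RSL3 and 2.10 in oeATOH8. TNS4, the only other member that met the limit on the mean, stood at rank 45 with r = 0.903.

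**Figure D5:**
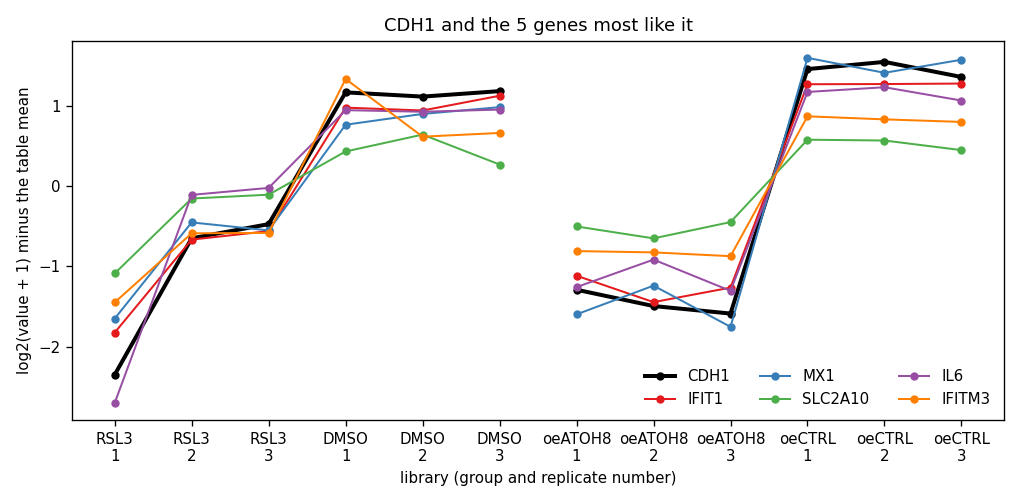
Log2(value + 1) minus the gene's own mean over the libraries of a table (y axis), for CDH1 and the 5 genes most like it. Each of the 12 libraries is on the x axis, and lines only join the points of a gene within a table. CDH1 and the others are low in RSL3 and oeATOH8 libraries and lowest of all, for CDH1, in RSL3 replicate 1.

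The prostate epithelial marker list could be checked for 1 of 10 genes. The keratin gene KRT8 fell 2.58-fold in oeATOH8 (5989 ± 419 in oeATOH8 and 15457 ± 286 in oeCTRL), and the other genes of the list were in neither table. Of 16 markers of other cell types, 2 were in the RSL3 table (CD68 and SYP), with summed levels of 1559 to 4368 in RSL3 libraries and 816 to 1653 in DMSO libraries. Another 4 were listed in the ATOH8 table, HBB, HBA1, HBA2 and COL1A2, with summed levels of 3298 to 55199 in oeATOH8 libraries and 7.25 to 12.6 in oeCTRL libraries, where HBB was at 0. PTPRC and PECAM1 were in neither table. The part of these markers in the lower epithelial genes was not tested. In such bulk RNA, fewer cells with a gene and less of its RNA per cell cannot be told apart.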

How the data were processed

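RNA of 12 DU145 libraries was compared within 2 deposited tables. Tools named in the submitters' processing notes are HISAT2, StringTie, fastp and DESeq2, with neither version nor role, and the build is hg38 (GRCh38). The deposited RSL3 table holds a signal per gene, and within a library each was a whole multiple of 1 step (tolerance 0.001), as read counts that the authors divided by a size factor are. For ATOH8 the deposited values are raw read counts, with 272 assembled loci. Both tables are deposited under names that mark differentially expressed genes and are read here as holding only genes the authors called. The header OE was taken to mean oeATOH8, and NC to mean oeCTRL.

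RSL3 rows were named by overlap (at least 0.5) with RefSeq or GENCODE spans, 1784 of 1810, and 1146 of 1424 ATOH8 rows by Ensembl identifier. RSL3 values were tested by limma 3.58.1 as log2(value + 1), keeping genes that filterByExpr of edgeR passed (minimum count 10, total 15), and ATOH8 counts with edgeR 4.0.16 (quasi-likelihood), two-sided with Benjamini-Hochberg adjustment. ATOH8 libraries were scaled by median ratio within a group, then so that the gap in log2 ratios of group means, -0.97 to 1.03 with no listed row, was centred on 0. DESeq2 1.42.0 and R 4.3.3 were also used. Code was tested on simulated data.

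The members, lists and tests were chosen with earlier results of these data known. Named genes were the members, up to 4 genes per list by adjusted p (all where 4 or fewer were listed), ATOH8, SCD and the 5 genes most like CDH1. Some genes are counted within their lists but not reported here by name. SCD had 13527 ± 93.4 scaled counts in oeATOH8 and 37736 ± 1103 in oeCTRL and was not in the RSL3 table. Deviations of same-numbered libraries correlated at 0.68, 0.61 and 0.61 in the RSL3 table, so ratios and a block fit by replicate number are also given. The main limma fit was unpaired. Differently numbered libraries correlated as much between replicates 2 and 3 (0.63 and 0.58). The values therefore set replicate 1 apart from replicates 2 and 3 and do not tell replicates 2 and 3 apart as separate pairs.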

Additional observations from a re-analysis of the deposited data

How the results depend on the processing

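No setting that alters a ratio of group means turned the direction of a member in either table. For settings that drop or average libraries this was fixed in advance, because the groups did not overlap for any member. Only the other scalings could have turned a direction. Among the settings, 7 RSL3 values and 5 ATOH8 values of the members moved by more than the spread between libraries. The number of RSL3 genes passing limma was 1421, and it was 926 with TMM, 898 with relative log expression, 634 with totals, 3 with replicates 2 and 3 averaged, 2 with all annotated genes counted as a test (chosen after seeing the data), and 6 to 1500 when a library was left out. For the epithelial lists it was 32, and 21 with totals, 0 with replicates 2 and 3 averaged, 0 with all annotated genes counted (34 at an unadjusted limma p under 0.05), and 0 to 38 when a library was left out (19 at an unadjusted p under 0.05 in the setting that left 0). Counting all annotated genes adds tests by construction. The limma fit passed 1758 genes with replicates 2 and 3 alone, 1500 without DMSO replicate 1 and 1000 without RSL3 replicate 1. It passed 6 and 8 without DMSO replicate 2 or 3. The cause of these differences was not tested. Scaling moved the median log2 ratio over listed RSL3 genes to 0.21, 0.19 and 0.03 with TMM, relative log expression and totals, and that of ATOH8 rows to -0.80, -0.19 and -1.56. With the replicate number as a block, 1720 RSL3 genes and 39 list genes passed. In the ATOH8 table same-numbered libraries correlated at 0.041, 0.053 and 0.074, so they share only a number, and the block left 1424 rows and 26 list genes passing. The ATOH8 counts stayed between 1007 and 1424 rows and between 19 and 26 list genes. Low reads limit MUC16, EPHA1 and FAM83F.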
